A study of Homo sapiens with 20 samples.

Results

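A set of 9 genes of MHC class I antigen presentation was followed through EGF-treatment of MDA-MB-468 cells, an established epithelial line from a triple negative breast cancer. They were taken by gene name, as 9 of the 60271 genes in the deposited tables, and each had 1 row on a primary chromosome. The members are the heavy chains HLA-B, HLA-C, HLA-E and HLA-F, the light chain B2M, the peptide transporter genes TAP1 and TAP2, the loading factor TAPBP (tapasin) and the transactivator NLRC5. Of the classical heavy chains, only HLA-B and HLA-C are described. The 5 groups were an untreated control and cells given EGF at 50 ng/mL, 12, 24, 48 or 72 h before harvest, each with 4 libraries from biological replicates. Per the labels, cells grew for 24 h and were kept without serum for 24 h before EGF, and all groups shared seeding and harvest and differed only in when EGF was added. With shared seeding and harvest, the time before EGF must differ between the EGF groups, so these statements of the labels cannot both hold for every group. The total time without serum in each group is not given. The cells are 1 line grown in culture, which limits them as a model of antigen presentation in a tumor.

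MHC class I molecules carry peptides from inside the cell to its surface, where cytotoxic T cells and natural killer cells read them. A heavy chain pairs with beta-2 microglobulin, the product of B2M. TAP1 and TAP2 together pump peptides from the cytosol into the endoplasmic reticulum, and tapasin holds the empty class I molecule at this pump until a peptide binds. NLRC5 switches on class I genes through a promoter module to which RFX5 and its partners, a CREB or ATF factor and the NFY complex bind. Interferons act on the same genes through IRF1 and related factors, which bind interferon-stimulated response elements (ISRE). Tumor cells often carry low levels of these genes.

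The genes lie in different places. In GENCODE 29 on GRCh38, 7 of the 9 are on chromosome 6, in the MHC region. HLA-F is at chr6:29722775-29738528 and HLA-E at chr6:30489467-30494205, both on the plus strand. HLA-C is at chr6:31268749-31272130 and HLA-B at chr6:31269491-31357188, both on the minus strand, with 35 shared exon bases. On the same strand follow TAP2 at chr6:32821833-32838780, TAP1 at chr6:32845209-32853978 and TAPBP at chr6:33299694-33314387. B2M is at chr15:44711487-44718877 and NLRC5 at chr16:56989485-57083531, both on the plus strand.

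To show which sequence elements the members share, the stretch before the start site was read from RefSeq on GRCh38.p14 for 7 of the 9 members, in windows of 250 bases before and 50 bases from the start. HLA-E and NLRC5 were not matched. Both strands were searched for GAAANNGAA and GAANNGAAA, which are overlapping parts of the ISRE, for CCAAT (the Y box, read by NFY), for TGACG (the X2 box, read by CREB and ATF factors) and for GGGNNTTCC (kappa B, read by NF-kappa B). Matches within the stretches shown are in capitals. The first set holds the heavy chains HLA-B and HLA-C and their light chain, whose windows hold an ISRE part, an X2 box and a Y box in that order.
HLA-B (chr6:31357189-31357366, minus strand): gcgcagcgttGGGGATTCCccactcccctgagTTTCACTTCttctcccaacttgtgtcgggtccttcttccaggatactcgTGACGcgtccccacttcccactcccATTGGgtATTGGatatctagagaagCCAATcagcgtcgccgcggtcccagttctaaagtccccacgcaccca
HLA-C (chr6:31272131-31272294, minus strand): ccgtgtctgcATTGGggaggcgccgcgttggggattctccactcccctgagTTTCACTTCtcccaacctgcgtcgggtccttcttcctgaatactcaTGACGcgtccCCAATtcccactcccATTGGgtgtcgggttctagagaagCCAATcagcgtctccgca
B2M (chr15:44711363-44711486, plus strand): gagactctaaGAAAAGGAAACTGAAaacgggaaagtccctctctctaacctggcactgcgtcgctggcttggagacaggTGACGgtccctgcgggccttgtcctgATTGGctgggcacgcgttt

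For the other 4 members, too few bases lay between the first element and the annotated exons, so 30 bases around the ISRE part are shown. An ISRE part was found in every one of the 7 matched genes. Exons cover all 300 bases of the TAP1 and TAPBP windows shown here and 205 of those of HLA-F, and the TAPBP stretch runs past the start site.
HLA-F (chr6:29723268-29723297, plus strand): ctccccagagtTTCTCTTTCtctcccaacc
TAP1 (chr6:32853816-32853845, minus strand): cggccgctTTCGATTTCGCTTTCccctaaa
TAP2 (chr6:32838781-32838810, minus strand): tggctgggGAAGCGAAAGCGAAagctgccc
TAPBP (chr6:33314077-33314106, minus strand): ctttggagGAAAGTGAAAGTGAAaggagga

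Of 35116 promoter windows in the RefSeq table, 8.11% held GAAANNGAA, 7.66% GAANNGAAA, 34.6% CCAAT, 24.6% TGACG and 6.58% GGGNNTTCC. HLA-B and HLA-C matched GAANNGAAA and not GAAANNGAA, at 155 and 151 bases before the start site, and GAANNGAAA was added to the search after the first matches were seen. The X2 box was found in HLA-B, HLA-C, B2M and TAP2. The kappa B letters were found in HLA-B, B2M and TAPBP. In TAP2 (X2 box) and in B2M and TAPBP (kappa B) these matches lie outside the stretches shown, as do Y boxes of HLA-F and TAP1. TAP1 had a second window, further into the gene, that held none of these letters. These are matches of letters only, and binding was not measured.

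Levels are given as CPM (counts scaled to an equal library total) after TMM scaling, which adjusts libraries for composition, as the mean ± SD over the 4 libraries of a group. Fold changes and adjusted p values are from edgeR's quasi-likelihood test on all 16522 genes that passed a filter on low counts, with Benjamini-Hochberg adjustment. Standard errors (SE, on the log2 scale) were derived from the same test, as the absolute log2 fold change over the square root of its F statistic. They are therefore not a separate measure of spread. A gene is called higher or lower when the adjusted p is under 0.05. All 9 members passed the filter. Total counts per library ranged from 15611961 to 25856953 (median 20398047), and mitochondrial genes held 7.69 to 16.9% of them. That share moved with the groups, from 9.03 to 12.6% in the control and 7.69 to 11.3% at 12 h to 12.3 to 16.4% at 72 h. For the cell type markers in this paragraph, ranges and summed levels are CPM by total counts, without TMM scaling. TMM factors were 1.06 to 1.08 in the control and 0.862 to 0.898 at 12 h, so the 2 scales differ between groups. The epithelial markers EPCAM (139 to 208 CPM) and CDH1 (83.6 to 166 CPM) were present in every library. The summed level of 6 epithelial markers was 1650 to 2130 CPM without EGF, 6320 to 6810 CPM at 12 h and 2510 to 2890 CPM at 72 h, and that of 3 endothelial markers was 1.9 to 3.53, 0.426 to 0.653 and 3.09 to 3.52 CPM. The leukocyte markers PTPRC (at most 8 counts) and CD3E (at most 2 counts) were near 0. The summed level of 8 leukocyte markers still moved with EGF, from 4.6 to 5.55 CPM without EGF to 30.8 to 36.5 CPM at 72 h. This was mostly through CD68, a lysosomal protein gene whose mean after TMM scaling went from 1.15 to 26.7 CPM. The summed level of 5 fibroblast markers went from 5.42 to 8.49 CPM without EGF to 13.2 to 15.3 CPM at 72 h. It was nearly all COL1A1 (5.33 to 15.2 CPM over all libraries), while COL1A2, COL3A1, LUM and DCN had at most 4 counts in any library. The part of all these markers and of the mitochondrial share in the results below was not tested. In bulk RNA, a change per cell and a change in the share of cells that express a gene cannot be told apart.

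Most class I genes were higher after EGF-treatment, but along different courses. At 12 h, 5 of the 9 were called higher and 0 lower (TAP2, NLRC5, TAP1, HLA-E and HLA-B), with a median log2 fold change of 0.5 against -0.054 over all genes. Among all genes tested, 32.9% were called higher and 36.5% lower at that time. At 24 h, 3 members were higher (TAP2, NLRC5 and TAP1) and 2 lower (HLA-F and TAPBP), beside 29.2% and 29.6% of all genes. At 48 h, 7 were higher and 0 lower, beside 24% and 21.8% of all genes. At 72 h, 8 were higher and 0 lower, with a median log2 fold change of 0.91, beside 30.6% and 31% of all genes and a median of -0.009. The 4 times share these control libraries.

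**Figure D1:**
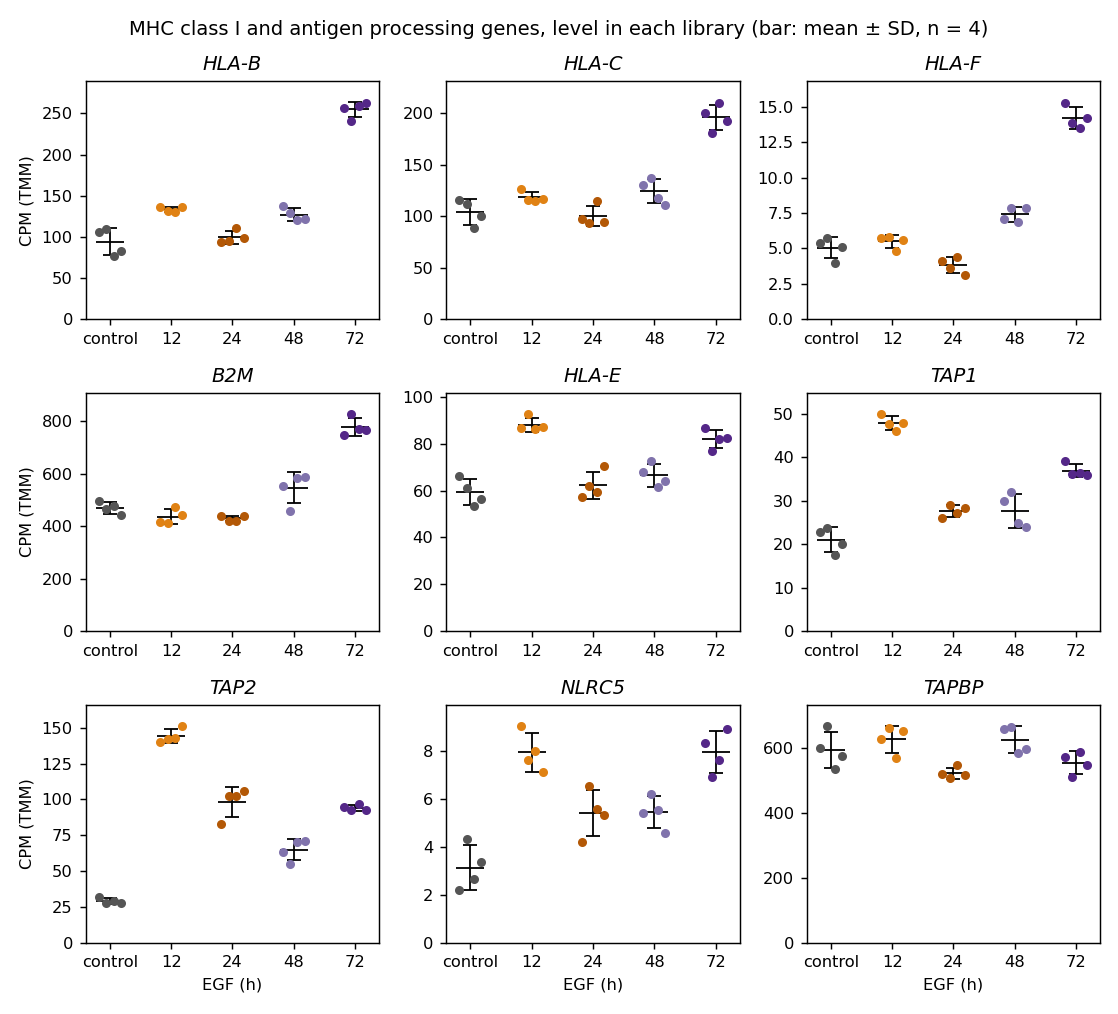
CPM after TMM scaling (vertical axis, starting at 0) of each of the 9 genes in each library (points) by hours of EGF (horizontal axis), with the mean and SD of the 4 libraries in black. HLA-B, HLA-C, HLA-F and B2M are highest at 72 h, while TAP1 and TAP2 are highest at 12 h and TAPBP stays between 506 and 667 CPM.

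HLA-B and HLA-C encode classical heavy chains, which present peptides to cytotoxic T cells. HLA-B stood at 106, 110, 77.2 and 83.5 CPM in the 4 control libraries and at 256, 241, 259 and 263 CPM at 72 h. Every library at 72 h was therefore more than 100 CPM above every control. The rise was 2.7-fold (log2 fold change 1.44, SE 0.089, adjusted p = 1.22e-12). Before this, HLA-B had gone to 134 ± 3.13 CPM at 12 h (log2 fold change 0.50, adjusted p = 2.11e-05) and was back at 99.6 ± 7.9 CPM at 24 h, where it did not pass the test (log2 fold change 0.081, adjusted p = 0.449). It averaged 127 ± 7.76 CPM at 48 h (log2 fold change 0.43, adjusted p = 3.10e-04), although with factors per gene taken from the deposited normalized values this value was 0.26 and was not called (adjusted p = 0.0667).

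HLA-C took a similar course with smaller steps. It stood at 116, 112, 88.5 and 100 CPM in untreated cells and at 200, 181, 210 and 192 CPM at 72 h, with no overlap. The rise was 1.88-fold (log2 fold change 0.91, SE 0.086, adjusted p = 2.67e-09). At 12 h it averaged 119 ± 4.95 CPM and did not pass the test (log2 fold change 0.19, adjusted p = 0.0592), while in the DESeq2 Wald test it did (0.21, adjusted p = 0.027). At 24 h it averaged 100 ± 10.1 CPM and was not called (log2 fold change -0.056, adjusted p = 0.595), while with factors per gene it was called lower (-0.23, adjusted p = 0.0287). The higher level at 48 h (124 ± 11.8 CPM, log2 fold change 0.25, adjusted p = 0.0204) was above all controls in 3 of 4 libraries. That call was lost when control replicate 3 (0.18), control replicate 4 (0.23), EGF 48 h replicate 1 (0.23) or EGF 48 h replicate 2 (0.20) was left out, with only the 8 libraries compared (adjusted p = 0.0907) and with factors per gene (0.16, adjusted p = 0.153). The ratio of HLA-B to HLA-C was 0.899 ± 0.0632 in the control and 1.13 ± 0.0342 at 12 h. It was 0.994 ± 0.0411 at 24 h, 1.03 ± 0.0692 at 48 h and 1.3 ± 0.0612 at 72 h. The 4 ratios at 72 h (1.23 to 1.37) lay above the 4 of the control (0.833 to 0.981). Heavy chain genes share long near-identical stretches and the alleles of this line may differ from the reference, so reads can be split between them or lost, and their levels are uncertain to that extent.

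HLA-F, a nonclassical heavy chain with low surface levels on most cells, changed about as much as HLA-B at 72 h. Its control libraries were at 5.37, 5.76, 4.01 and 5.09 CPM, and those at 72 h at 15.3, 13.9, 13.5 and 14.2 CPM. The rise was 2.81-fold (log2 fold change 1.49, SE 0.12, adjusted p = 8.04e-11). At 12 h HLA-F averaged 5.5 ± 0.471 CPM and did not pass the test (log2 fold change 0.12, adjusted p = 0.385). At 24 h it fell to 3.82 ± 0.569 CPM (log2 fold change -0.41, adjusted p = 0.00779), with 2 of 4 libraries below all controls. With the factors per gene this fall was -0.095 and was not called (adjusted p = 0.666). At 48 h it averaged 7.42 ± 0.538 CPM, above all controls in every library (log2 fold change 0.55, adjusted p = 5.16e-04). The antisense gene HLA-F-AS1 covers 12.3% of the exon bases of HLA-F on the other strand and went from 1.48 ± 0.456 CPM without EGF to 8.66 ± 0.454 CPM at 72 h. Whether the counting used strand is not given in the sources used here, so reads of the pair may not be told apart.

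HLA-E, a nonclassical heavy chain that mostly presents signal peptides of other class I molecules to the NKG2A receptor of natural killer cells, was highest early. It stood at 66.2, 61.3, 53.4 and 56.6 CPM in untreated cells and at 86.5, 92.5, 86.1 and 87.2 CPM at 12 h. The rise was 1.48-fold (log2 fold change 0.57, SE 0.076, adjusted p = 4.43e-07). It averaged 62.3 ± 5.69 CPM at 24 h (log2 fold change 0.071, adjusted p = 0.441) and 66.6 ± 4.95 CPM at 48 h (0.17, adjusted p = 0.0784), and neither passed the test. At 72 h it averaged 81.9 ± 3.92 CPM, a rise of 1.38-fold (log2 fold change 0.47, SE 0.076, adjusted p = 1.14e-05). The levels at 72 and 12 h did not pass the test of a difference (log2 fold change -0.10, adjusted p = 0.225), while with factors per gene HLA-E was called lower at 72 h (-0.21, adjusted p = 0.0378).

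B2M, the gene of the class I light chain, rose late. It stood at 496, 464, 475 and 441 CPM in untreated cells, and at 417, 412, 472 and 443 CPM at 12 h. These groups overlapped (log2 fold change -0.10, adjusted p = 0.178). At 24 h it averaged 429 ± 10.4 CPM, with all 4 libraries below all controls, but it did not pass the test (log2 fold change -0.13, adjusted p = 0.109). When libraries were scaled by total counts only, B2M was called lower at both times (-0.39 at 12 h and -0.27 at 24 h), as it was under upper quartile scaling (-0.27 and -0.18). At 48 h B2M was above all controls in 3 of 4 libraries (553, 459, 582 and 587 CPM, log2 fold change 0.22, adjusted p = 0.0118), a call that was lost with only the 8 libraries compared (adjusted p = 0.0779) and with factors per gene (0.18, adjusted p = 0.0864). At 72 h it stood at 748, 825, 770 and 767 CPM, 1.66-fold above the control (log2 fold change 0.73, SE 0.069, adjusted p = 2.48e-09).

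TAP2 had the largest fold change of the 9 genes at 12, 24, 48 and 72 h, except that with factors per gene HLA-F led at 72 h (log2 fold change 1.84, against 1.61 for TAP2). Its control libraries were at 31.9, 27.6, 29 and 27.7 CPM. At 12 h they were at 140, 142, 143 and 151 CPM, a 4.95-fold rise (log2 fold change 2.31, SE 0.086, adjusted p = 8.98e-17). The level then went down to 98.4 ± 10.8 CPM at 24 h (3.38-fold over the control, adjusted p = 1.51e-14) and 64.9 ± 7.48 CPM at 48 h (2.23-fold, adjusted p = 6.45e-11). It went up again to 94.5, 92.3, 97.1 and 92.9 CPM at 72 h (3.24-fold, adjusted p = 2.20e-14). No EGF library at any time overlapped with the control. The unnamed gene AL669918.1 shares 32.3% of the exon bases of TAP2 on the same strand, with a median of 26.5 counts per library.

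TAP1, the other subunit of the transporter, rose less. It stood at 22.8, 23.8, 17.5 and 20 CPM in untreated cells and at 49.9, 47.7, 46 and 47.9 CPM at 12 h. This was a 2.28-fold rise (log2 fold change 1.19, SE 0.093, adjusted p = 6.65e-11). It averaged 27.7 ± 1.35 CPM at 24 h (log2 fold change 0.40, adjusted p = 8.87e-04) and 27.7 ± 3.94 CPM at 48 h (0.39, adjusted p = 0.00139), in both cases above all controls. At 72 h it averaged 36.9 ± 1.52 CPM (1.76-fold, log2 fold change 0.81, adjusted p = 6.59e-08). The ratio of TAP2 to TAP1 went from 1.4 ± 0.201 in the control to 3.01 ± 0.157 at 12 h and 3.55 ± 0.273 at 24 h. It was 2.41 ± 0.597 at 48 h and 2.55 ± 0.108 at 72 h. The lowest of the 16 ratios under EGF, 1.72 at 48 h, was above the highest of the control, 1.65. On the strand opposite to TAP1, PSMB8-AS1 covers 9.49% of its exon bases, and its level went from 5.95 ± 0.676 CPM without EGF to 2.43 ± 0.327 CPM at 12 h.

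TAPBP was not called higher than the control at any time. Its control libraries were at 601, 667, 535 and 574 CPM, and those at 72 h at 573, 510, 589 and 547 CPM. These ranges overlapped (log2 fold change -0.10, SE 0.069, adjusted p = 0.221). It was not called at 12 h (627 ± 42 CPM, log2 fold change 0.077, adjusted p = 0.33) or at 48 h (626 ± 41.3 CPM, 0.075, adjusted p = 0.399). Under scaling by total counts it was called lower at 12 h (-0.21, adjusted p = 0.017) and at 72 h (-0.18, adjusted p = 0.0466). At 24 h it fell to 522 ± 17 CPM (log2 fold change -0.19, adjusted p = 0.024), with 3 of 4 libraries below all controls. That call was lost without control replicate 2 (-0.13), EGF 24 h replicate 2 (-0.17) or EGF 24 h replicate 4 (-0.18), with no filter (adjusted p = 0.0605) and with only the 8 libraries compared (adjusted p = 0.061).

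NLRC5, the transactivator, was low but rose at every time. It stood at 2.21, 4.33, 2.65 and 3.36 CPM in untreated cells and at 9.04, 7.63, 8.01 and 7.13 CPM at 12 h. The rise was 2.52-fold (log2 fold change 1.33, SE 0.17, adjusted p = 1.70e-07), with no overlap. It averaged 5.41 ± 0.967 CPM at 24 h (log2 fold change 0.77, adjusted p = 4.40e-04, 3 of 4 libraries above all controls) and 5.44 ± 0.671 CPM at 48 h (0.79, adjusted p = 5.34e-04). At 72 h it stood at 8.36, 6.94, 7.65 and 8.94 CPM, 2.53-fold above the control (log2 fold change 1.34, SE 0.17, adjusted p = 2.36e-07). The levels at 12 and 72 h did not pass the test of a difference (log2 fold change 0.0046, SE 0.16, adjusted p = 0.982).

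**Figure D2:**
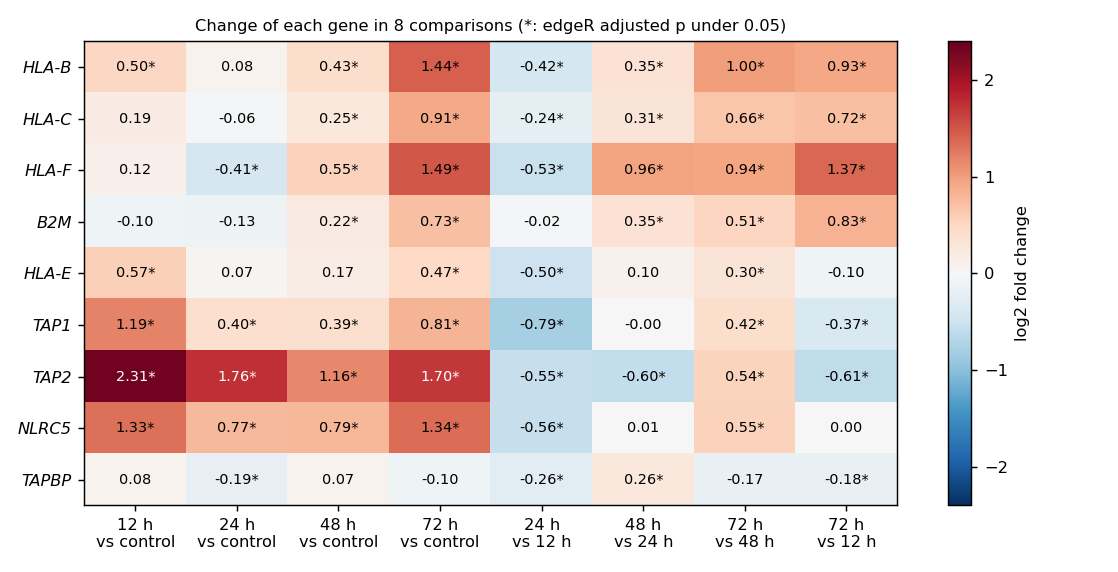
Log2 fold change (color and number) of each of the 9 genes (rows) in 8 comparisons (columns), 4 against the control and 4 between times of EGF, with an asterisk where edgeR's adjusted p was under 0.05. TAP2 has the highest value at all 4 times in these fits (with factors per gene HLA-F led at 72 h), and the columns against the control show 5 members higher at 12 h and 8 at 72 h.

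The steps between times were tested in the same fit. From 12 to 24 h, 8 of the 9 members were lower and 0 higher, beside 25.9% lower and 27.9% higher among all genes. B2M was the exception (log2 fold change -0.024, adjusted p = 0.785). The falls ranged from TAP1 (-0.79, adjusted p = 2.04e-07) to HLA-C (-0.24, adjusted p = 0.0214). The call of HLA-C was lost when EGF 12 h replicate 1 (-0.21), EGF 24 h replicate 2 (-0.21) or EGF 24 h replicate 4 (-0.22) was left out, and the calls of HLA-C and TAPBP were lost under scaling by total counts (-0.10 and -0.12).

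From 24 to 48 h the members went apart. HLA-F (log2 fold change 0.96, adjusted p = 9.54e-07), B2M (0.35, adjusted p = 2.03e-04), HLA-B (0.35, adjusted p = 0.00198), HLA-C (0.31, adjusted p = 0.00498) and TAPBP (0.26, adjusted p = 0.0031) were higher. TAP2 was lower (-0.60, adjusted p = 2.10e-06). With the factors per gene, HLA-B was not called (0.24, adjusted p = 0.0905). The calls were 5 and 1 of the 9, beside 25.9% higher and 24.3% lower among all genes. From 48 to 72 h, 8 members were higher and 0 lower, beside 17.9% in each direction among all genes. HLA-B (2.01-fold, log2 fold change 1.00, adjusted p = 4.72e-09) and HLA-F (0.94, adjusted p = 6.21e-07) rose most in that step, and TAPBP was the exception (-0.17, adjusted p = 0.0535).

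The level at 72 h was also compared with that at 12 h, a comparison added after the values were seen. HLA-F (log2 fold change 1.37, adjusted p = 4.46e-10), HLA-B (0.93, adjusted p = 2.59e-09), B2M (0.83, adjusted p = 2.85e-10) and HLA-C (0.72, adjusted p = 1.02e-07) were higher at 72 h in every library. TAP2 (-0.61, adjusted p = 5.30e-07), TAP1 (-0.37, adjusted p = 9.30e-04) and TAPBP (-0.18, adjusted p = 0.0283) were lower. Among all genes, 35.6% were higher and 32% lower. Under scaling by total counts TAP1 was not called (-0.16), and TAPBP stood at 0.031. The call of TAPBP was also lost without EGF 12 h replicate 2 (-0.15) or 4 (-0.16), or EGF 72 h replicate 2 (-0.14) or 4 (-0.17). HLA-E and NLRC5 were not called.

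Across the 20 libraries, the log2 CPM of HLA-B ran with that of HLA-C (Pearson's r = 0.97) and HLA-F (0.92), while that of HLA-E ran with TAP1 (0.94). NLRC5 ran with TAP1 (0.87), TAP2 (0.83) and HLA-E (0.78), then with HLA-B (0.68), HLA-C (0.57), HLA-F (0.46) and B2M (0.29). TAPBP had r between -0.18 and 0.33 with the other 8. These values describe libraries that share 5 groups and are not tests. Among all other genes with a mean of at least 1 CPM, the 5 most like the mean profile of the heavy chains and B2M included HLA-H (0.944), a pseudogene of the same family that may share reads with the members, TMEM40 (0.938), SCNM1 (0.933) and PSG4 (0.918), and 1 of the 5 is not reported here. HLA-H went from 13.6 CPM without EGF to 27.5 CPM at 72 h. Most like the mean profile of TAP1, TAP2 and TAPBP were RAB11FIP5 (0.964), GSN (0.949), EXTL3 (0.946), ELOVL1 (0.946) and ITPKC (0.945). RAB11FIP5 stood at 7.91 CPM in untreated cells, 20 CPM at 12 h and 14 CPM at 72 h. Most like NLRC5 were FUT3 (0.957), C1orf116 (0.949) and CHPF (0.948).

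The immunoproteasome makes many of the peptides that class I molecules carry, and its genes PSMB8 and PSMB9 lie beside TAP1 and TAP2. Of 7 genes of the immunoproteasome and its activators, 1 was higher and 1 lower at 12 h (32.9% and 36.5% of all genes), 1 higher and 2 lower at 24 h (29.2% and 29.6%), 1 higher and 1 lower at 48 h (24% and 21.8%), and 2 higher and 1 lower at 72 h (30.6% and 31%). These counts are no more than the shares of all genes give. PSMB9, which lies head to head with TAP1, fell from 6.07 ± 0.59 to 3.7 ± 0.697 CPM at 12 h (log2 fold change -0.71, SE 0.15, adjusted p = 1.97e-04), when TAP1 rose. At 72 h PSMB9 averaged 10.5 ± 0.491 CPM (log2 fold change 0.79, adjusted p = 2.96e-05). PSMB8 averaged 31.2 ± 4.77 CPM in untreated cells, 32.5 ± 3.11 CPM at 12 h and 49.8 ± 4.01 CPM at 72 h (log2 fold change 0.68, adjusted p = 2.54e-06). PSMB10, the remaining catalytic subunit, was not called at any time and stood at 6.59 ± 2.08 CPM in untreated cells and 6.27 ± 2.01 CPM at 72 h. Of the 3 constitutive catalytic subunits that these replace, PSMB5, PSMB6 and PSMB7, all 3 were higher at 12 and 24 h, and 1 under scaling by total counts. At 48 and 72 h only PSMB7 was called, and 0 were called when control replicate 4, or at 72 h control replicate 3, was left out. PSMB7 stood at 66.3 CPM in untreated cells and 95.8 CPM at 24 h (log2 fold change 0.53, adjusted p = 3.60e-08).

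Genes for the folding of class I molecules and the trimming of peptides changed in both directions. Of 15 such genes, 7 were higher and 2 lower at 12 h (32.9% and 36.5% of all genes), and 5 higher and 6 lower at 24 h (29.2% and 29.6%). At 48 h 0 were higher and 8 lower (24% and 21.8%), and at 72 h 3 were higher and 6 lower (30.6% and 31%). Their median log2 fold change at 72 h was -0.18, beside -0.009 over all genes. CALR, the chaperone calreticulin, rose from 685 to 1030 CPM at 12 h (log2 fold change 0.58, adjusted p = 2.69e-09) and fell to 469 CPM at 24 h (-0.55, adjusted p = 1.40e-08). CANX, the chaperone calnexin, fell at 24, 48 and 72 h, to 775 CPM at 72 h (log2 fold change -0.54, adjusted p = 7.84e-08). The peptide trimming enzyme ERAP1 fell from 76.7 to 46 CPM at 24 h (-0.74, adjusted p = 6.42e-09), while its relative ERAP2 rose from 4.92 to 8.14 CPM (0.72, adjusted p = 1.64e-04).

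Of 27 regulators of class I genes, 18 were higher and 7 lower at 12 h, when 32.9% and 36.5% of all genes were. At 24 h 9 were higher and 10 lower (29.2% and 29.6% of all genes), and at 72 h 9 were higher and 11 lower (30.6% and 31%). The counts at 48 h were 5 higher and 10 lower (24% and 21.8%). IRF1 rose from 15.3 ± 3.38 to 36.1 ± 4.48 CPM at 12 h (log2 fold change 1.24, SE 0.13, adjusted p = 8.26e-09) and averaged 11.8 ± 0.596 CPM at 24 h, 21.6 ± 3.86 CPM at 48 h and 19.3 ± 1.07 CPM at 72 h. RFX5, part of the factor with which NLRC5 works, was lower at every time, between 15.6 ± 1.61 CPM at 24 h and 19.7 ± 1.42 CPM at 48 h, against 24.3 ± 1.95 CPM in the control. Also at 12 h, its partner RFXAP fell from 12 to 4.21 CPM (log2 fold change -1.51, adjusted p = 2.42e-06) and the NFY subunit NFYB from 27.8 to 9.83 CPM (-1.50, adjusted p = 1.10e-09). RFXAP averaged 13.3 CPM at 24 h. Other parts of the module went both ways at 12 h. RFXANK was lower (-0.32, adjusted p = 0.0223), while CREB1 rose from 67.4 to 123 CPM (0.86, adjusted p = 8.07e-10). ATF1 (0.33), NFYA (0.22) and NFYC (0.19) were called higher at 12 h as well. SOCS3, a feedback inhibitor of cytokine receptors, rose from 3.11 to 36.4 CPM (log2 fold change 3.55, adjusted p = 1.18e-16), and the interferon gamma receptor chain IFNGR2 from 42.4 to 98.7 CPM (1.22, adjusted p = 6.70e-13). The other chain of that receptor, IFNGR1, fell from 276 to 116 CPM at 12 h (-1.25, adjusted p = 5.62e-12) and was lower at all 4 times.

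**Figure D3:**
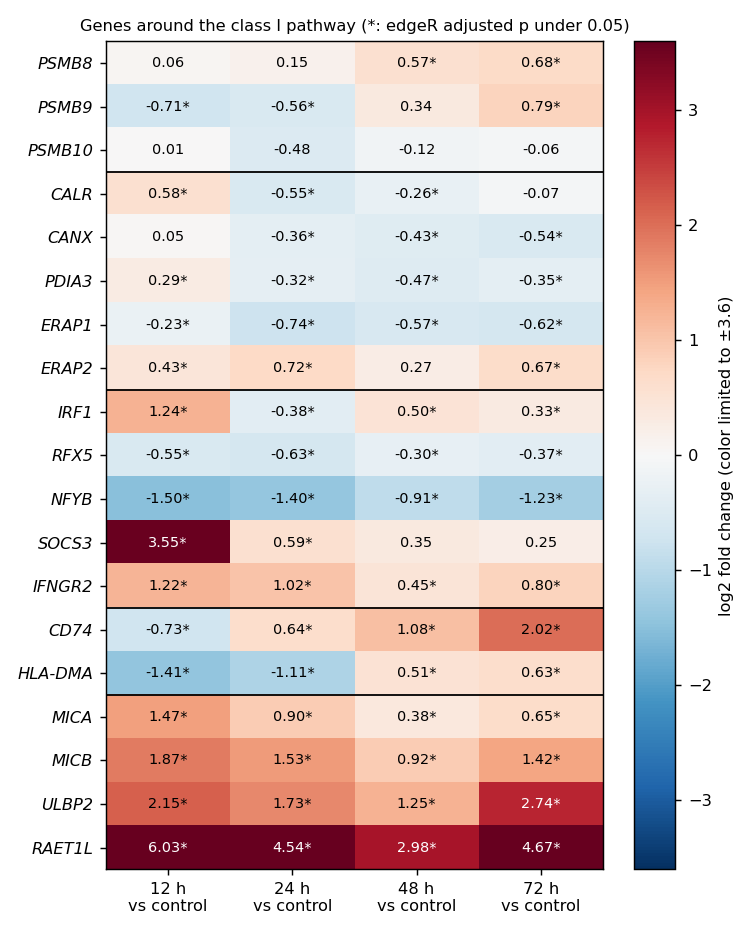
Log2 fold change against the control (color and number, asterisk where edgeR's adjusted p was under 0.05) at 4 times of EGF (columns) for 19 genes (rows) of the immunoproteasome, loading and trimming, regulation, MHC class II and NKG2D ligands, from top to bottom. PSMB9 is lower at 12 h and higher at 72 h, NFYB and RFX5 are lower at all 4 times, and RAET1L has the highest value, 6.03 at 12 h. RAET1G, an NKG2D ligand that was lower at 24 and 72 h, is not shown. Nor are the regulators CREB1, ATF1, NFYA and NFYC, which were called higher at 12 h.

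MHC class II genes, which usually serve antigen-presenting cells, were low. Of 11 class II genes, 6 did not pass the filter and had at most 10 counts in any library. CD74, the invariant chain, fell from 1.19 ± 0.346 to 0.713 ± 0.00579 CPM at 12 h (log2 fold change -0.73, adjusted p = 0.00706) and rose to 4.82 ± 0.431 CPM at 72 h (2.02, adjusted p = 2.46e-09). HLA-DMA, which edits class II peptides, fell from 7.82 ± 1.04 to 2.95 ± 0.193 CPM at 12 h (-1.41, adjusted p = 1.35e-09) and rose to 12.1 ± 0.698 CPM at 72 h (0.63, adjusted p = 5.54e-05). HLA-DRA had at most 3 counts in every control library and 1.02 CPM at 72 h, at least 7.42-fold higher than 3 counts per control library. HLA-DOB had a mean of 0.242 CPM without EGF and of 1.19 CPM at 48 h, its highest.

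Stress ligands of the class I fold, which natural killer cells read through NKG2D, were in part higher at all 4 times. Of 14 class I-related genes, 12 were tested, and 7, 6, 8 and 8 were higher at 12, 24, 48 and 72 h while 3, 3, 2 and 3 were lower, beside the shares of all genes given above (24% to 32.9% higher and 21.8% to 36.5% lower). RAET1L rose from 0.479 ± 0.195 to 32.2 ± 1.34 CPM at 12 h (log2 fold change 6.03, SE 0.25, adjusted p = 1.29e-15). ULBP2 rose from 7.42 to 49.6 CPM at 72 h (2.74, adjusted p = 3.92e-16), and MICB from 31.2 to 114 CPM at 12 h (1.87, adjusted p = 2.45e-14). Another NKG2D ligand, RAET1G, fell from 3.5 to 1.7 CPM at 24 h (-1.03, adjusted p = 1.56e-04) and was also lower at 72 h. HFE, which controls iron uptake, fell from 14.7 to 2.95 CPM at 12 h (-2.31, adjusted p = 2.52e-13), and AZGP1, a secreted class I-like protein, from 713 to 287 CPM at 24 h (-1.31, adjusted p = 5.20e-13). Of 8 genes for the turnover of class I molecules, 5 were higher and 1 lower at 12 h (32.9% and 36.5% of all genes), and 4 higher and 3 lower at 24 h (29.2% and 29.6%). At 48 h and again at 72 h, 3 were higher and 1 lower, beside 24% and 21.8%, and 30.6% and 31%, of all genes. Among them HM13, the signal peptide peptidase that helps release the peptide HLA-E presents, rose from 186 to 386 CPM at 12 h (log2 fold change 1.05, adjusted p = 1.65e-12).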

How the data were processed

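RNA from 20 cultures was sequenced by the authors with the Lexogen Corall mRNA kit as single-end reads of 75 bases. The authors deposited estimated counts rounded to whole numbers, not normalized, for 60271 genes, the same in all 10 tables. Beside them the authors deposited normalized values, a score on the scale of counts that differs from them by a factor per gene and library, and DESeq2 fold changes and p-values, which were not used. Per the labels' processing notes the build was hg38. Aligner, counter, annotation, strand setting and the use of molecular identifiers are not given in the sources used here, so PCR duplicates may remain.

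The counts were analyzed in edgeR 4.0.16 (limma 3.58.1, R 4.3.3) with filterByExpr, TMM scaling and the robust quasi-likelihood test, in 1 fit to the 20 libraries, with group means as terms. DESeq2 1.42.0 served as an alternative. The threshold was an adjusted p of 0.05, and log2 fold changes used a prior count of 0.125. A floor of 3 counts per library was used where a group lay at or under it. Replicates are biological per the labels, and the variance between them was 3.95 to 71.9 times the sampling noise over 30 pairs. On simulated data for EGF 12 h against the control (16102 genes), 180 of 200 changed genes and 5 unchanged genes were called. Only those 200 genes were changed, while 32.9% of genes were called higher and 36.5% lower in the data. The simulation therefore does not cover scaling or error rates where most genes move. The members and lists were chosen with earlier results of these data known. All 9 members were named, then the 5, 5 and 3 genes most like 3 member profiles, and from each list up to 3 called genes with the largest rise and up to 3 with the largest fall (mean of at least 1 CPM, all EGF libraries on one side of the controls), of which some are given, together with IRF1, RFX5, PSMB8, PSMB9 and PSMB10. IFNGR1, CALR, CANX, PDIA3, MICA, MICB, HLA-DRA, HLA-DOB and the antisense and marker genes were chosen after their values were seen. So were CREB1, ATF1, NFYA, NFYC and RFXANK. Some genes are not reported here. Alternatives were other scalings (library size, upper quartile, DESeq2 size factors, factors per gene), other filters, only the 8 libraries compared, a replicate block, summed rows of a symbol, a prior count of 2, glmTreat, and fits without each library in turn.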

Additional observations from a re-analysis of the deposited data

Results flagged for a closer look

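TAP1 at 72 h was at 39.2 CPM in replicate 1, apart from the other 3 libraries of the group (36 to 36.4 CPM). TAP2 at 24 h was at 82.5 CPM in replicate 1, below the other 3 (102 to 106 CPM). Each gap was large against the range of its group by Dixon's criterion, in 2 of 45 groups of 4 libraries tested, and chance gives about 1 in 20. Both values lay above all control libraries of their gene.

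The response to EGF differed between times, by edgeR's test of the difference itself, in 8 of the 9 members between 24 and 12 h, in 6 between 48 and 24 h, in 8 between 72 and 48 h and in 7 between 72 and 12 h. Among all genes, 27.9% were higher and 25.9% lower between 24 and 12 h, and 25.9% and 24.3% between 48 and 24 h. The shares were 17.9% in each direction between 72 and 48 h. Between 72 and 12 h they were 35.6% and 32%. In each of these comparisons except 72 against 48 h, most of all genes were called as well, by a narrow margin for 48 against 24 h. HLA-F was lower than the control at 24 h (log2 fold change -0.41) and higher at 48 h (0.55), with a difference of 0.96 (adjusted p = 9.54e-07).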

How the results depend on the processing

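Changes of scaling shifted all genes together: the median log2 fold change at 12 h against the control was -0.054 with TMM, -0.337 with library size only and -0.216 with upper quartile scaling. Library size only turned the direction of HLA-C (-0.10), HLA-F (-0.16) and TAPBP (-0.21) at 12 h, HLA-E (-0.074) and HLA-B (-0.064) at 24 h, B2M for 24 against 12 h (0.12), TAP1 for 48 against 24 h (0.15), and HLA-E (0.10) and TAPBP (0.031) for 72 against 12 h. Of these only TAPBP for 72 against 12 h had been called. Upper quartile scaling turned HLA-F (-0.043) and TAPBP (-0.087) at 12 h, B2M for 24 against 12 h (0.092), TAP1 for 48 against 24 h (0.064) and HLA-E for 72 against 12 h (0.035). With at least 10 counts in every library, B2M for 24 against 12 h was 0.016 and TAP1 for 48 against 24 h 0.032. The latter was 0.0080 with only the 8 libraries compared and 0.0018 with rows of the same symbol summed. NLRC5 for 72 against 12 h was -0.033 with no filter. With factors per gene from the deposited normalized values, chosen after seeing the data, HLA-E at 24 h was -0.010, NLRC5 for 48 against 24 h -0.11 and TAP1 for 48 against 24 h 0.056. Leaving out 1 library at a time turned results near 0: HLA-B at 24 h ranged from -0.0032 to 0.17, B2M for 24 against 12 h from -0.052 to 0.014, NLRC5 for 48 against 24 h from -0.10 to 0.11 and for 72 against 12 h from -0.054 to 0.069, and TAP1 for 48 against 24 h from -0.085 to 0.057. The cause was not tested.

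For the counts in this paragraph, the share of all genes called under the same setting is not given. They show how calls move with the setting and are not results about the members or lists. Against a 1.5-fold change, glmTreat called 3, 1 and 1 of the 9 members at 12, 24 and 48 h, and 1, 1, 2 and 3 for 24 against 12 h, 48 against 24 h, 72 against 48 h and 72 against 12 h. At 72 h against the control, only HLA-E (log2 fold change 0.47) lost its call under glmTreat. With factors per gene, 4 members were called at 48 h. The same factors, which cover 11956 genes, called 5 loading and trimming genes, 1 immunoproteasome gene, 0 constitutive subunits, 9 regulators, 4 class I-related genes and 2 turnover genes at 48 h, 13 regulators at 72 h, and 1 class II gene at each time. Library size only called 14 loading and trimming genes and 7 turnover genes at 72 h, 5 immunoproteasome genes at 12 and at 24 h, and 1, 1 and 0 constitutive subunits at 12, 24 and 72 h. Upper quartile scaling called 1 constitutive subunit at 12 h and 0 at 72 h, and no filter or only 8 libraries called 0 at 48 and 72 h. At least 10 counts in every library left 2 class II genes at 72 h and 6 class I-related genes at 48 h. Leaving out 1 library gave 2 to 4 immunoproteasome genes at 48 h (4 without control replicate 2 or EGF 48 h replicate 3), 2 to 5 at 24 h (5 without control replicate 3), and 0 to 1 constitutive subunits at 48 and 72 h (0 without control replicate 4, and at 72 h also 3).

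Most same-numbered libraries were not alike, since 5 of 40 pairs had a correlation above 0.1 (range -0.239 to 0.348) and 8 of 20 libraries correlated best with their own number. The highest values were those of control and EGF 48 h replicates 2 (0.328) and 3 (0.348). Whether replicate numbers pair the libraries was not tested. With the replicate number as a block, all 72 member results kept direction and call, for example TAP2 at 12 h (log2 fold change 2.31). The DESeq2 Wald test changed 1 of the 72. Genes under about 1 CPM have few counts at this depth.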
